A study of Mus musculus with 352 samples.

Results

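Tibialis anterior, a fast-twitch muscle at the front of the lower leg, was compared between old wild-type mice and wild-type mice of 10 weeks. Both groups carried the C57BL/6 background, were fed ad libitum and carried no knockout allele, per the labels. The old group held 24 mice of 85 to 116 weeks (12 females and 12 males), and the group called 10 week WT here held 23 mice of 10 to 12 weeks (12 females and 11 males). They made up 47 of the 352 libraries of the series, and were taken by their labels, without use of any measured value. Each mouse gave 1 sample of whole muscle, snap frozen at 1 of 6 zeitgeber times (ZT, hours after lights on) spaced 4 h apart, so a 24 h profile is built from different animals. The wild-type mice of 26 weeks (22, ad libitum) are given as a description between the ages and enter no test against the other groups. The labels give an age range for the old group and no age for single animals, so change within the old group was not analysed here.

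Muscle ages through a slow loss of fibre mass and force, with partial loss and regrowth of nerve contacts and changes in the connective tissue between fibres. Young adult mice are still near the end of growth, a time when collagen and other matrix genes are actively transcribed in muscle, tendon and bone. Muscle also holds a circadian clock, in which BMAL1 (gene symbol Arntl) and CLOCK switch on the Per, Cry and Rev-erb genes that later repress them, and in which DBP and related factors pass the rhythm on to other genes.

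Values were log2 FPKM, the log2 of fragment numbers scaled for transcript length and for depth. Old libraries held an estimated 16.9 to 37.9 mega-reads (median 21.01) and those of 10 week WT mice 17.3 to 47.2 (median 22.7). Pairs of old libraries had r between 0.896 and 0.984 across genes, pairs of 10 week WT libraries between 0.914 and 0.983, and no library was a copy of another. Over all 9862 genes tested the median difference was 0.03 log2 units. The 9 muscle fibre markers were present at high level in all libraries, with a summed log2 value of 15.6 to 16.3 in old mice and 15.3 to 16.0 in 10 week WT mice. In the test of level given below, 5 of the 9 were higher and 0 lower in old mice. Their median difference was 0.27 log2 units.

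Bone genes were also present, and they differed between the ages. Ibsp (bone sialoprotein, of osteoblasts) had a lowest, median and highest log2 value of -6.95, -3.15 and 0.56 in old mice, against 0.69, 4.21 and 6.36 in 10 week WT mice. Mmp13, a collagenase of growing bone and cartilage, had -7.06, -2.25 and 1.28 in old mice, against 0.99, 4.71 and 6.37 in 10 week WT mice. Every old mouse lay below every 10 week WT mouse in Ibsp, and 22 of 24 did in Mmp13. The osteoclast genes Acp5 and Ctsk were lower in old mice by 4.35 ± 0.47 and 3.3 ± 0.30 log2 units (SE). The mean log2 value of these 4 genes, called the bone score here, ran between -4.76 and 0.93 in old mice (median -1.77) and between 0.77 and 5.59 in 10 week WT mice (median 3.79). The lowest values of Ibsp, Mmp13 and Acp5 in old mice (-6.95, -7.06 and -6.55) lie near the floor of log2 of 0.01 FPKM. In old mice the spread of the score, and its relation to other genes, therefore rest in part on values of few reads. This limit also holds for fits that use the score. Only 2 old libraries and 1 library of 10 week WT mice lay in the range that both groups share. A fit with the bone score as a covariate is therefore given beside the results, with the limit that outside this narrow range bone score and age cannot be told apart.

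The first question was which genes had another 24 h mean level in old muscle. The level was called different for 4088 of 9862 genes (41.5%), of which 2347 (23.8%) were higher and 1741 (17.7%) lower in old mice (limma, Benjamini-Hochberg adjusted p under 0.05). Most of these differences were small. A change of at least 1.5-fold was found for 230 genes (2.33%) higher and 315 (3.19%) lower in old mice. The groups did not overlap at all in 17 genes (0.172%) that were higher and 18 (0.183%) that were lower in old mice. With the bone score as a covariate 2392 genes were called, 1151 of them higher and 1241 lower in old mice. The calls of 1235 genes were shared with the same sign, 2835 were made only without the covariate, 1139 only with it, and 18 changed sign. The genes tested had passed a filter on the mean over all 352 libraries, most of them from mice younger than the old group. A gene high only in old mice could fall under it, while Ibsp passed with a mean of -3.56 in old mice. With no filter and no covariate, 2801 of 14413 genes were called higher and 2627 lower.

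Among the 9862 genes tested, Ostn was the gene most raised in old muscle. It encodes osteocrin, also named musclin, a small peptide secreted by muscle fibres, and lies at chr16:27307489-27351212 on the plus strand (GRCm38). Its log2 value had a lowest, median and highest of 3.27, 4.72 and 5.67 in old mice, against 0.59, 1.66 and 2.36 in 10 week WT mice. All 24 old mice stood above all 10 week WT mice, and the 26 week mean of 3.06 lay between the groups. The difference was 3.11 ± 0.16 log2 units (SE), an 8.64-fold higher level in old mice (limma adjusted p = 9.13e-20), and it was 2.87 ± 0.37 with the bone score as a covariate. Within each group Ostn showed little relation to the bone score, with Pearson's r of -0.103 in old mice and -0.168 in 10 week WT mice.

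Mss51 encodes a mitochondrial protein enriched in fast muscle (chr14:20482867-20496901, minus strand). Its log2 value had a lowest, median and highest of 3.96, 5.17 and 6.89 in old mice, against 1.03, 2.31 and 4.77 in 10 week WT mice, and 20 of 24 old mice lay above all 10 week WT mice. The difference was 2.78 ± 0.19 log2 units (SE), and 1.92 ± 0.42 with the bone score as a covariate (limma adjusted p = 0.0016). The transcription factor gene Cebpb had 2.93, 3.76 and 4.52 in old mice, against -0.32, 1.02 and 2.95 in 10 week WT mice, a difference of 2.70 ± 0.14 log2 units. Only 1 old mouse fell inside the range of the 10 week WT mice for Cebpb.

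Sln encodes sarcolipin, a short membrane protein that binds and inhibits the calcium pump of the sarcoplasmic reticulum. It had a lowest, median and highest log2 value of 1.74, 3.02 and 6.14 in old mice, against -0.03, 1.32 and 2.47 in 10 week WT mice. The old mice were more spread, and 20 of 24 stood above all 10 week WT mice, with a difference of 2.00 ± 0.24 log2 units (SE, limma adjusted p = 8.52e-09). Rasd2, which encodes a small Ras-like GTPase, was 3.77-fold higher in old mice, and Actr3b, of the actin-related protein family, was 3.56-fold higher. The Rasd2 difference was 1.91 without and 0.65 with the bone score as a covariate, where it was not called (limma adjusted p = 0.0863).

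Several other genes of the 12 with the largest positive differences share sequence or place with other genes, and their values are uncertain for that reason. Amy1 (salivary amylase, which has a close pancreatic paralogue) was 3.42-fold higher in old mice, and its log2 range of 3.69 to 5.13 in old mice lay above the 2.07 to 3.12 of 10 week WT mice. Gnas, whose locus also gives an antisense transcript, was 6.80-fold higher. Further members were the short RNA genes Gm25911, Gm24270 and Mir1a-1, with differences of 2.44, 2.15 and 2.03 log2 units, which a library of long fragments measures poorly.

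**Figure D1:**
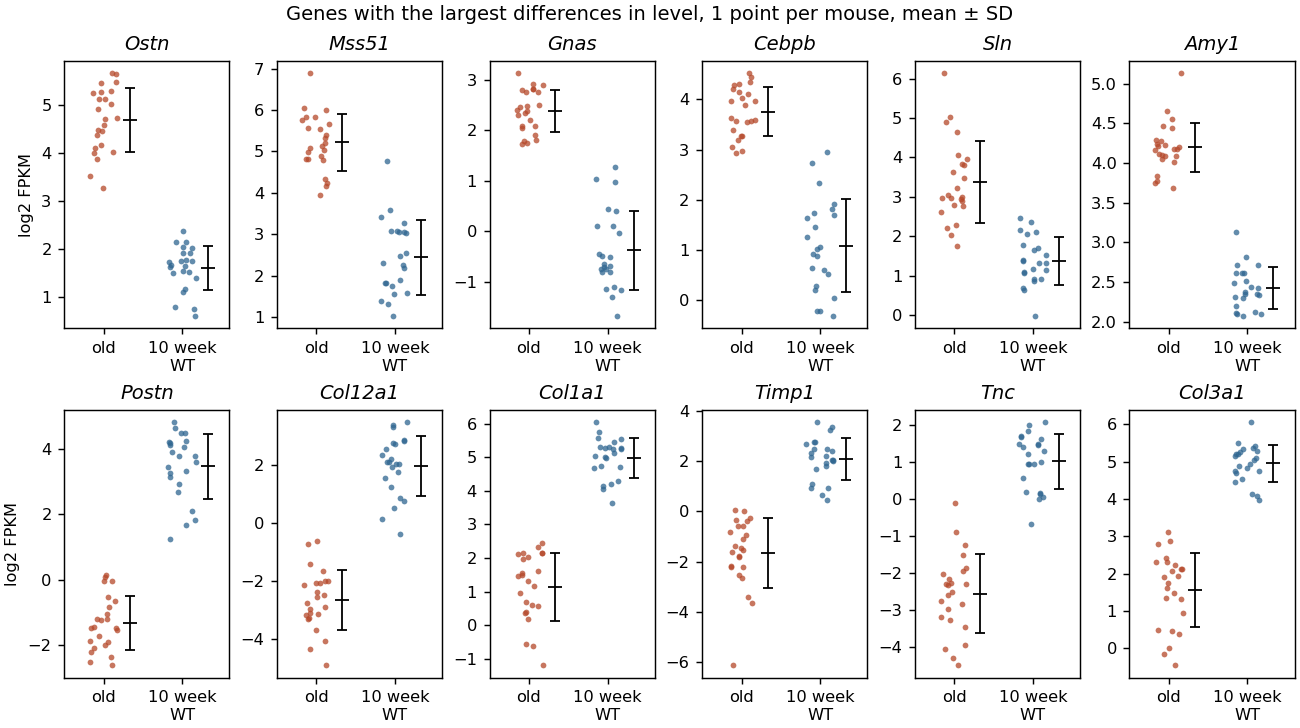
Log2 FPKM per mouse (y axis) in old mice (left, 24) and 10 week WT mice (right, 23) for 12 of the tested genes with the largest level differences. Points are mice and bars are mean ± SD. All old mice lay above all 10 week WT mice for Ostn, Gnas and Amy1, and below them for Postn, Col12a1, Col1a1, Timp1 and Col3a1.

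Among the genes tested, the 12 with the largest negative differences were bone and matrix genes. Besides Ibsp, Mmp13, Acp5 and the bone and matrix phosphoprotein Spp1 they were Postn, Col12a1, Col1a1, Kera, Timp1, Tnc, Col3a1 and Col1a2. Postn encodes periostin, a matrix protein of growing and mended connective tissue (chr3:54361109-54391037, plus strand). Its lowest, median and highest log2 values were -2.62, -1.47 and 0.15 in old mice, against 1.25, 3.78 and 4.81 in 10 week WT mice. All old mice lay below all 10 week WT mice, and the level was lower by 4.79 ± 0.26 log2 units (SE, limma adjusted p = 5.59e-19), with a 26 week mean of 1.38.

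The main collagen of tendon and bone, type I, followed the same direction. Col1a1 (chr11:94936224-94953042, plus strand) had a lowest, median and highest log2 value of -1.20, 1.39 and 2.43 in old mice, against 3.64, 5.14 and 6.04 in 10 week WT mice. Its partner chain Col1a2 had -0.58, 1.44 and 2.42 in old mice, against 3.13, 4.5 and 5.64 in 10 week WT mice. Neither gene overlapped between the groups. The 10 week WT level was 14.3-fold that of old mice for Col1a1 and 10.4-fold for Col1a2. Col3a1, a collagen of softer tissue found between muscle fibres, fell by 3.40 ± 0.21 log2 units in old mice.

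Bone marker level moved with these genes inside each age group. In 12 relations computed (6 genes in 2 groups, permutation tests of 100000 resamples, smallest p possible 1e-05), Postn and the bone score had Pearson's r of 0.858 in old mice and 0.937 in 10 week WT mice. Spearman's rho for Postn was 0.844 in old mice and 0.886 in 10 week WT mice, each adjusted p being 4e-05 or less, and r without the 2 most distant mice was 0.815 in old mice and 0.917 in 10 week WT mice. For Col12a1 r was 0.814 in old mice and 0.881 in 10 week WT mice. Its rho was 0.797 in old mice and 0.828 in 10 week WT mice, and its r without the 2 most distant mice 0.758 in old mice and 0.865 in 10 week WT mice. The relation was looser for Col1a1 in old mice, with r of 0.509 (permutation p = 0.0113, adjusted 0.0169) and rho of 0.539, against r of 0.833 and rho of 0.738 in 10 week WT mice. Without the 2 most distant mice it was 0.456 in old mice and 0.790 in 10 week WT mice. Col3a1 had r of 0.514 and rho of 0.538 in old mice, against 0.773 and 0.759 in 10 week WT mice, and r was 0.410 in old mice and 0.814 in 10 week WT mice without the 2 most distant. For Ostn and Mss51 the adjusted permutation p lay between 0.417 and 0.731 for r and between 0.451 and 0.7 for rho, and r without the 2 most distant mice lay between -0.359 and 0.0023.

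The differences were smaller, once the bone score was a covariate, in each of the 8 matrix genes named above. Col1a1 was then lower in old mice by 1.94 log2 units, Col3a1 by 1.61, Postn by 1.64, Col1a2 by 1.41 and Col12a1 by 1.34, each with a limma adjusted p of 0.0117 or less. Tnc was no longer called (-0.56 log2 units, limma adjusted p = 0.264), and neither were Timp1 (adjusted p = 0.0805) and Kera (adjusted p = 0.124). The part of bone tissue in these differences was not tested.

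**Figure D2:**
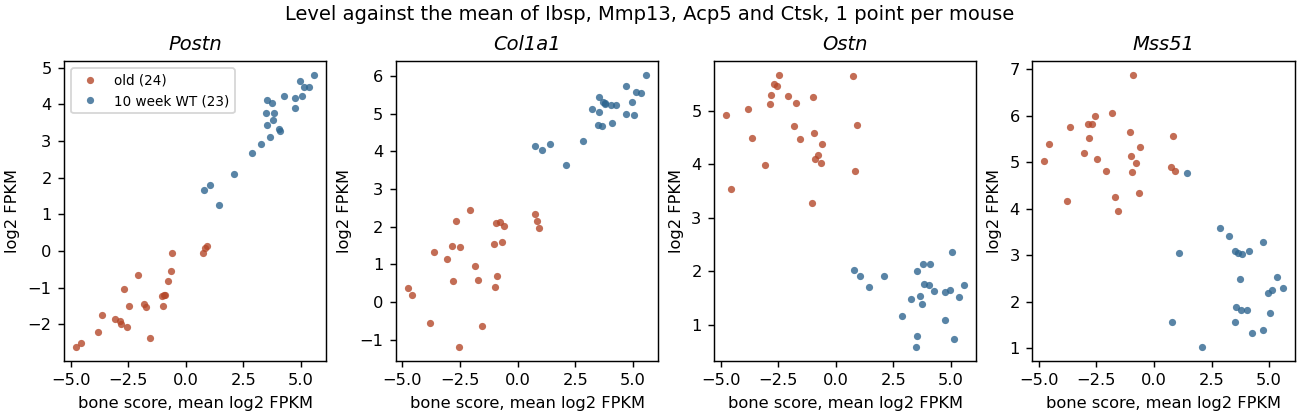
Level of Postn, Col1a1, Ostn and Mss51 (y axis, log2 FPKM) against the bone score (x axis, mean log2 FPKM of Ibsp, Mmp13, Acp5 and Ctsk), 1 point per mouse, for 24 old and 23 10 week WT mice. Postn climbed with the bone score in both groups (r of 0.858 in old and 0.937 in 10 week WT mice), while Ostn did not (r of -0.103 in old and -0.168 in 10 week WT mice), and the groups met along the x axis only between 0.77 and 0.93.

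As a list, the fibrillar collagens and the enzymes that process them had 15 members tested, of which 14 were lower and 0 higher in old mice, with a median difference of -1.99 log2 units against 0.03 over all genes. Only P4ha2, a prolyl hydroxylase subunit, was not called. Beyond the collagens, the collagen chaperone Serpinh1 was lower by 1.18 log2 units and the crosslinking enzymes Lox and Loxl2 by 2.01 and 2.32. Basement membrane and other matrix genes had 26 of 27 members lower and 0 higher in old mice, with a median of -1.26. Sparc (osteonectin, a collagen-binding glycoprotein) was lower by 1.87 log2 units, fibronectin (Fn1) by 1.83, and the basement membrane collagen Col4a1 by 1.21. The microfibril collagen genes Col6a1, Col6a2 and Col6a3 were lower by 1.45, 1.49 and 1.52 log2 units. With the bone score as a covariate 8 of the 15 and 7 of the 27 genes were still called lower, and 1 of the 27 higher.

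Markers of other cells moved as well, and in bulk samples fewer cells of a type and less RNA per cell cannot be told apart. Over all genes tested, 23.8% were higher and 17.7% lower in old mice. Of the fibroblast markers 6 of 7 tested were lower in old mice (median -0.70 log2 units), with summed log2 values of 5.98 to 8.67 in old mice and 7.16 to 8.64 in 10 week WT mice. Of the endothelial markers 7 of 8 were lower (median -0.48), among them the adhesion protein gene Pecam1 (-0.45 log2 units) and the receptor genes Tie1 and Kdr (-0.65 and -0.61). The endothelial sum ran between 4.77 and 6.11 in old mice and between 5.6 and 6.58 in 10 week WT mice. All 5 macrophage markers tested were lower, Cd68 by 1.14 log2 units and the complement genes C1qa, C1qb and C1qc by 0.62, 0.52 and 0.54. A further 7 macrophage markers fell under the filter on low values. In the fit over all 14413 genes, where 18.2% of genes were lower, 3 of these 7 were lower and 0 higher. Adgre1, Mpeg1, Cd14 and Cd163 were not called there.

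The calls of the markers tested changed with the bone score as a covariate. Of the fibroblast markers 0 were then lower and 1 higher, and 5 endothelial markers were lower. Of the macrophage markers 0 were lower and 4 higher in old mice, and Lyz2, C1qa and C1qc then stood 1.12, 1.42 and 1.27 log2 units higher in old mice. In males alone 2 fibroblast and 1 macrophage markers were lower, and leaving out single libraries left 3 to 5 macrophage markers lower (3 without old replicate 3, 5, 10, 11, 21 or 23 or 10 week WT replicate 12, 21 or 23). Tendon markers were lower in 4 of 5 tested, Tnmd (tenomodulin) by 2.68 log2 units, and 0 of these was called with the covariate. Scx, the tendon transcription factor scleraxis, was the member that rose, by 0.82 log2 units. Of the adipocyte, Schwann cell and mural cell markers tested 1 of 2, 1 of 2 and 1 of 6 were lower, where 17.7% of all genes tested were lower. The mural cell count was near that share. The marrow and skin keratinocyte markers were all under the filter on low values.

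Several genes of blood and antibody-producing cells were higher in old muscle. Of the 5 red cell genes 4 rose (over all genes tested, 23.8%), with a median of 1.13 log2 units. The haemoglobin genes Hba-a1 and Hbb-bs, which have near-identical copies, were higher by 1.27 and 1.13. The red cell sum was 6.62 to 10.4 in old mice and 4.28 to 7.80 in 10 week WT mice. Ighm, the heavy chain of IgM, had a lowest, median and highest log2 value of 3.53, 5.49 and 8.5 in old mice, against 3.32, 4.55 and 5.54 in 10 week WT mice. It rose by 1.17 ± 0.29 log2 units (SE, limma adjusted p = 0.0013), but was not called with the bone score as a covariate or in males alone. Red cell genes were higher in 3 of 5 with that covariate and in 1 of 5 in males alone.

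The other immunoglobulin genes fell under the filter on low values and were read in the fit over all 14413 genes, in which 37.7% of genes were called, 19.4% higher and 18.2% lower in old mice. Of the 7 B and plasma cell genes under the filter 4 were higher and 0 lower there. Ighg2c, an IgG heavy chain, had 0.63, 1.55 and 4.81 in old mice, against -2.57, -1.62 and -0.36 in 10 week WT mice, with all 24 old mice above all 10 week WT mice (3.21 ± 0.22 log2 units). The light chain gene Igkc had -1.33, 2.88 and 9.05 in old mice, against -6.59, -1.15 and 0.10 in 10 week WT mice, and 22 of 24 old mice lay above all 10 week WT mice. Jchain, which joins secreted IgM and IgA, and Igha, the IgA heavy chain, were higher by 2.25 ± 0.51 and 2.83 ± 0.53 log2 units. The B cell receptor genes Cd79a and Cd79b were not called (0.78 ± 0.52 and 0.35 ± 0.39 log2 units), and Cd3e of the T cell receptor complex was higher by 1.53 ± 0.21.

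Genes of the neuromuscular junction and of the response to lost nerve contact rose more often than they fell. Of 16 tested, 8 were higher and 1 lower in old mice (over all genes tested, 23.8% and 17.7%), with a median of 0.19 log2 units. Beside Sln, the risers were Gadd45a (a stress protein induced by denervation, 0.84 log2 units), the acetylcholine receptor subunits Chrna1 (0.61) and Chrne (0.20), the junction kinase Musk (0.55), Colq, which anchors acetylcholinesterase (0.42), Hdac4 (0.35) and Rapsn (0.19). Etv5, a transcription factor of the nuclei under the junction, was lower by 0.34. Chrna1 had a lowest, median and highest log2 value of 1.73, 2.54 and 3.38 in old females, against 1.06, 1.52 and 2.00 in 10 week WT females. In males it had 0.99, 1.70 and 2.56 in old mice, against 1.11, 1.51 and 1.95 in 10 week WT mice. With the bone score as a covariate 1 member of the list was called higher and 2 lower. In males alone 3 were higher and 2 lower.

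Of the 4 myogenic factors and embryonic myosins tested 2 were higher, the differentiation factor Myog by 0.68 log2 units and Mef2c by 0.19, and 0 were higher with the bone score as a covariate. Over all genes tested 23.8% were higher and 17.7% lower. In the fit over all 14413 genes the members under the filter on low values were 4 higher and 2 lower of 9 for the junction and denervation list, and 3 higher and 2 lower of 6 for the myogenic list. In that fit 19.4% of all genes were higher and 18.2% lower. Chrng, the receptor subunit of fetal and denervated muscle, had a lowest, median and highest log2 value of -6.00, -2.52 and 0.75 in old mice, against -6.72, -5.00 and -3.32 in 10 week WT mice. At these levels a library holds few reads of the gene, and 14 of 24 old mice stood above all 10 week WT mice. Gdf5, a growth factor induced by denervation, was higher by 2.09 ± 0.31 log2 units, the embryonic myosin gene Myh3 by 0.98 ± 0.17 and the myoblast fusion gene Mymx by 3.95 ± 0.51. The adhesion molecule gene Ncam1, known as a marker of denervated fibres, was lower by 0.51 ± 0.15, and Nnmt by 0.68 ± 0.19. Pax7, the transcription factor of satellite cells, was lower by 1.29 ± 0.19 log2 units, and 17 of 24 old mice lay below all 10 week WT mice. Of the 4 satellite cell markers under the filter 3 were lower, with Vcam1 and Myf5 at -0.68 and -0.54 and Chrdl2 not called (0.05). Of the 2 above it, Cdh15 was higher by 0.29 and Sdc4 lower by 0.35. These genes were named after their values were seen.

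Contractile genes of fast fibres were slightly higher. Of 13 tested, 8 were higher and 0 lower in old mice (over all genes tested, 23.8% and 17.7%), with a median of 0.32 log2 units. The 9 muscle fibre markers, which share Tnnt3 and Actn3 with this list, had a median of 0.27. The part of the muscle RNA share in this rise, or in the fall of markers of other cells, was not tested. Tnnt3 (fast troponin T) was higher by 0.35, Mybpc2 (fast myosin-binding protein) by 0.50 and Actn3 (alpha-actinin of fast fibres) by 0.34. Tnnc2 (fast troponin C) was higher by 0.55, but its mean log2 value was only 1.03 in old mice and 0.50 in 10 week WT mice. Tnnt3 had means of 13.6 in old mice and 13.3 in 10 week WT mice, so the Tnnc2 value is uncertain. The fast myosin genes Myh4 and Myh1 were not called (0.27 and -0.21 log2 units). Of the 8 slow fibre genes 0 were higher and 1 lower, the oxidative fast myosin Myh2 at -0.82. With the bone score as a covariate 2 fast fibre genes were higher and 2 lower, and Mybpc2 and Actn3 were no longer called (-0.11 and -0.16 log2 units).

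Energy metabolism genes moved little as groups. Of 31 genes of oxidative phosphorylation 0 were higher and 1 lower, the complex III subunit gene Uqcrc1 at -0.16 log2 units, with a list median of 0.07. Leaving out single libraries gave 0 to 3 higher and 0 to 3 lower. The count also depended on how each library weighted long and short genes. With the slope of each library's values on gene length as a covariate 14 were lower, and with the slope on GC content 5 were higher and 1 lower. The mean length slope was -0.03 ± 0.08 log2 units per doubling of length in old libraries and 0.03 ± 0.07 in 10 week WT libraries (SD).

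Among the 25 genes of fatty acid uptake and oxidation 5 were higher and 3 lower, against 23.8% and 17.7% of all genes tested. With the bone score as a covariate 9 of the 25 were higher and 0 lower. In females alone 4 of them were higher and 3 lower, and in males alone 1 was higher and 2 lower. Ucp3, a mitochondrial uncoupling protein, was higher by 0.72 log2 units, the fatty acid transporter Slc27a1 by 0.36 and the dehydrogenase Acadm by 0.22. The lower members were the coactivator Ppargc1a (-0.74), a driver of mitochondrial gene programmes, its partner Ppara (-0.52) and the acyl-CoA synthetase Acsl1 (-0.32). Of 26 genes of glucose uptake and glycolysis 6 were higher and 5 lower, with 3 higher without 10 week WT replicate 17 and 0 higher with the bone score as a covariate. For this list 7 were higher and 2 lower in females alone, and 0 were higher and 2 lower in males alone. Hexokinase 2 (Hk2) and the insulin receptor substrate Irs1 were lower by 0.51 and 0.62 log2 units, and aldolase A (Aldoa) was higher by 0.27. Lipid synthesis genes were lower in 7 of 12 tested and higher in 0, with a median of -0.27. They included the desaturase Scd2 (-1.10), fatty acid synthase (Fasn, -0.56), the ATP citrate lyase Acly (-0.34) and the regulators Srebf1 (-0.39) and Mlxipl (-0.34), and with the bone score as a covariate 4 were lower.

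**Figure D3:**
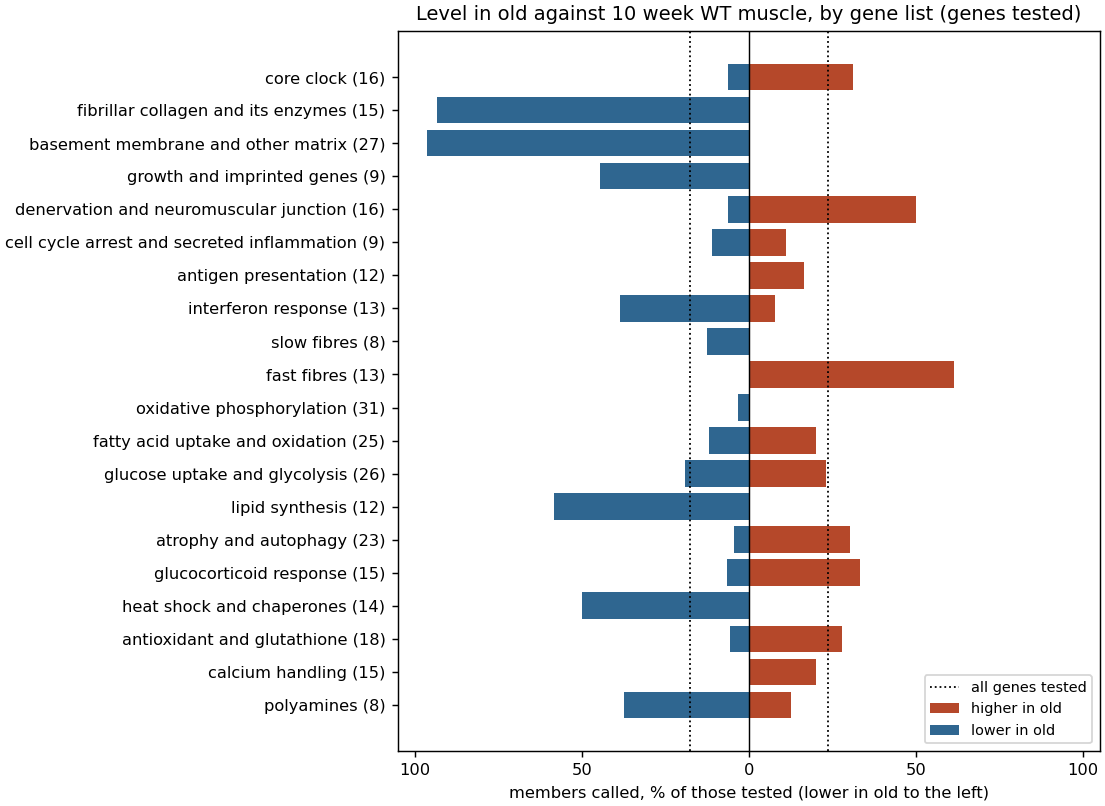
Percentage (x axis) of the tested members of each pathway list with 8 or more tested (y axis, number tested in brackets; cell type marker lists not shown) that were called higher (right, red) or lower (left, blue) in old than in 10 week WT muscle. The dotted lines give the share over all genes tested (23.8% higher and 17.7% lower). Among these lists the 2 matrix lists reach furthest to the left with 14 of 15 and 26 of 27 members lower, and fast fibre genes reach furthest to the right with 8 of 13 higher.

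Protein breakdown and stress lists were mixed. Of 23 atrophy and autophagy genes 7 were higher and 1 lower, where 23.8% of all genes tested were higher and 17.7% lower. The ubiquitin ligase genes Fbxo32 and Trim63, which mark wasting muscle, were higher by 0.51 and 0.37 log2 units, and Map1lc3a, which coats autophagosomes, by 0.79. Fbxo30 was the lower member (-0.20). Of the 23, 3 were higher with the bone score as a covariate. Of 15 genes responsive to glucocorticoids 5 were higher, including Klf15 (0.50) and Tsc22d3 (0.36), and 1 was lower, the metallothionein gene Mt1 (-0.92). Only 1 was higher with the bone score as a covariate, and 1 in males alone. Heat shock and chaperone genes were lower in 7 of 14 tested and higher in 0, with Bag3 (-0.59), Hspb7 (-0.95), Hsp90aa1 (-0.53) and Cryab (-0.40) among them, and 4 were lower with the bone score as a covariate.

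Of 18 antioxidant genes 5 rose and 1 fell (over all genes tested, 23.8% rose and 17.7% fell). Nqo1, a quinone reductase, had a difference of 0.58 ± 0.05 log2 units and the glutathione transferase gene Gsta4 one of 0.62 ± 0.06, and with the bone score as a covariate they were 0.60 and 0.81. Sod2, the mitochondrial superoxide dismutase, was lower by 0.25. Of the 9 genes of cell cycle arrest and secreted inflammation tested 1 rose and 1 fell. Eda2r, a receptor of the tumour necrosis factor receptor family whose ligand is ectodysplasin A2, was 2.09-fold higher in old mice (1.06 ± 0.14 log2 units), and Tgfb1 was lower by 0.79. Cdkn1a, which encodes the cell cycle inhibitor p21, was not called (0.29 log2 units), nor was Trp53 (0.01).

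Of 9 growth and imprinted genes tested 4 were lower and 0 higher, and 2 were lower with the bone score as a covariate. H19, a long noncoding RNA of growing muscle, had a mean log2 value of 7.21 ± 0.61 in old mice and 8.08 ± 0.29 in 10 week WT mice (SD). Meg3, Peg3 and Mest were lower by 1.15, 0.60 and 0.33 log2 units, while Igf2 was not called (-0.20). Of the 13 interferon response genes 1 rose and 5 fell, 3 being lower when any of 13 single libraries was left out and 0 with the bone score as a covariate. Ifi27 was higher by 0.53 log2 units, and Gbp7, Irf9, Stat2, Gbp2 and Rsad2 were lower by 0.65, 0.30, 0.30, 0.28 and 0.36. Among 12 antigen presentation genes 2 rose, the class I genes H2-Q7 and H2-K1 (0.88 and 0.37), which have close paralogues, and with the bone score as a covariate 7 did. Polyamine genes had 3 of 8 lower and 1 higher (1 lower with the bone score as a covariate). Of the calcium handling genes 3 of 15 were higher and 0 lower, against 23.8% and 17.7% of all genes tested. For calcium handling 5 were higher without old replicate 4 and 6 with the length slope as a covariate. With the bone score as a covariate 3 calcium handling genes were higher and 3 lower.

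The second question was whether the 24 h rhythm differed. Genes were fitted with a cosine of 24 h, whose amplitude is the distance of the peak above the mean in log2 units. In old mice 139 of 9862 genes (1.41%) were called rhythmic, and 1188 (12%) had an unadjusted p under 0.05. In 10 week WT mice 576 genes (5.84%) were called and 2218 (22.5%) had an unadjusted p under 0.05. Rhythmic in both were 86 genes, 61.9% of the old list and 14.9% of the 10 week WT list. The test of the difference itself called 0 genes (limma, Benjamini-Hochberg adjusted p under 0.05), and 744 (7.54%) had an unadjusted p under 0.05. The smaller list of old mice is therefore not shown to be a loss of rhythm gene by gene.

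The clock ran in old muscle with its phases near those of the young. Of 16 core clock genes tested, 11 were called rhythmic in old mice and 14 in 10 week WT mice, and the 11 were rhythmic in both. Arntl had a mean log2 value of 3.78 ± 0.21 at ZT 0 and 1.44 ± 0.48 at ZT 12 in old mice, against 4.27 ± 0.93 at ZT 0 and 1.07 ± 0.26 at ZT 12 in 10 week WT mice (SD, n = 4, and 3 at ZT 0 in 10 week WT mice). Its amplitude was 1.10 ± 0.09 in old mice and 1.57 ± 0.11 in 10 week WT mice (SE), with fitted peaks at ZT 22.7 in old mice and ZT 23.04 in 10 week WT mice. Its 24 h mean level did not pass the test (-0.04 log2 units, limma adjusted p = 0.816).

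Amplitude was lower in old mice in 10 of the 11 clock genes rhythmic in both groups, Cry2 being the exception with 0.50 ± 0.08 in old mice and 0.37 ± 0.06 in 10 week WT mice. Over all genes tested 55.7% had a lower amplitude in old mice. Among all 16 clock genes tested 14 did, and their median amplitude was 0.52 in old mice and 0.54 in 10 week WT mice. The repressor Per2 had an amplitude of 1.16 ± 0.12 in old mice and 1.73 ± 0.14 in 10 week WT mice, and Per3 0.86 ± 0.09 in old mice and 1.32 ± 0.17 in 10 week WT mice. The Rev-erb genes that repress Arntl had 1.25 ± 0.15 (Nr1d1) and 0.27 ± 0.05 (Nr1d2) in old mice, against 1.6 ± 0.16 and 0.54 ± 0.07 in 10 week WT mice. The output factor gene Dbp had 1.79 ± 0.11 in old mice and 1.84 ± 0.15 in 10 week WT mice (unadjusted p of the rhythm difference 0.158). Tef, a relative of Dbp, had 0.29 ± 0.05 in old mice and 0.50 ± 0.05 in 10 week WT mice, and their antagonist Nfil3 0.73 ± 0.11 in old mice and 1.10 ± 0.15 in 10 week WT mice.

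Single genes did not pass the test of the rhythm difference. Unadjusted p was under 0.05 for 5 of the 16, namely Per2 (0.0057), Cry1 (0.0124), Arntl (0.0141), Nr1d2 (0.0165) and Tef (0.0341), and limma adjusted p of these lay between 0.465 and 0.613. Cry1, a late repressor, had an amplitude of 0.23 ± 0.08 in old mice, where it was not called rhythmic, and 0.46 ± 0.07 in 10 week WT mice. Peaks came earlier in old mice in 8 of the 11 genes, by at most 0.91 h (Per2), with a median size of shift of 0.36 h. The sampling interval was 4 h.

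The mean level was higher for 5 of 16 clock genes and lower for 1 in old mice (over all genes tested, 23.8% and 17.7%). Their median difference was 0.14 log2 units. The higher ones included Tef (0.35), Cry2 (0.40), Per1 (0.53) and Per3 (0.44), and Clock (-0.17) was lower. With the bone score as a covariate 0 were higher and 2 lower. In females alone 8 clock genes were higher and 2 lower, and in males alone 2 were higher and 1 lower. The age difference differed between the sexes for Tef and Dbp (limma adjusted p = 0.0487 and 0.0458). Tef had means of 5.17 in old and 4.63 in 10 week WT females, and 5.06 in old and 4.95 in 10 week WT males. At ZT 4, a time picked after the values were seen and not tested by itself, Per1 had a mean log2 value of 2.88 ± 0.57 in old mice and 1.17 ± 0.69 in 10 week WT mice (SD, n = 4 each). Of the 3 clock genes under the filter on low values, Npas2 was lower by 1.16 ± 0.17 log2 units in the fit over all genes, and Ciart and Hlf were not called (0.11 ± 0.20 and 0.04 ± 0.10). Ciart had a mean log2 value of 0.67 in old and 0.63 in 10 week WT mice, and Hlf 0.36 and 0.35. These 2 genes fell under the filter only because it takes the mean over all 352 libraries, and their rhythm is not given here.

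**Figure D4:**
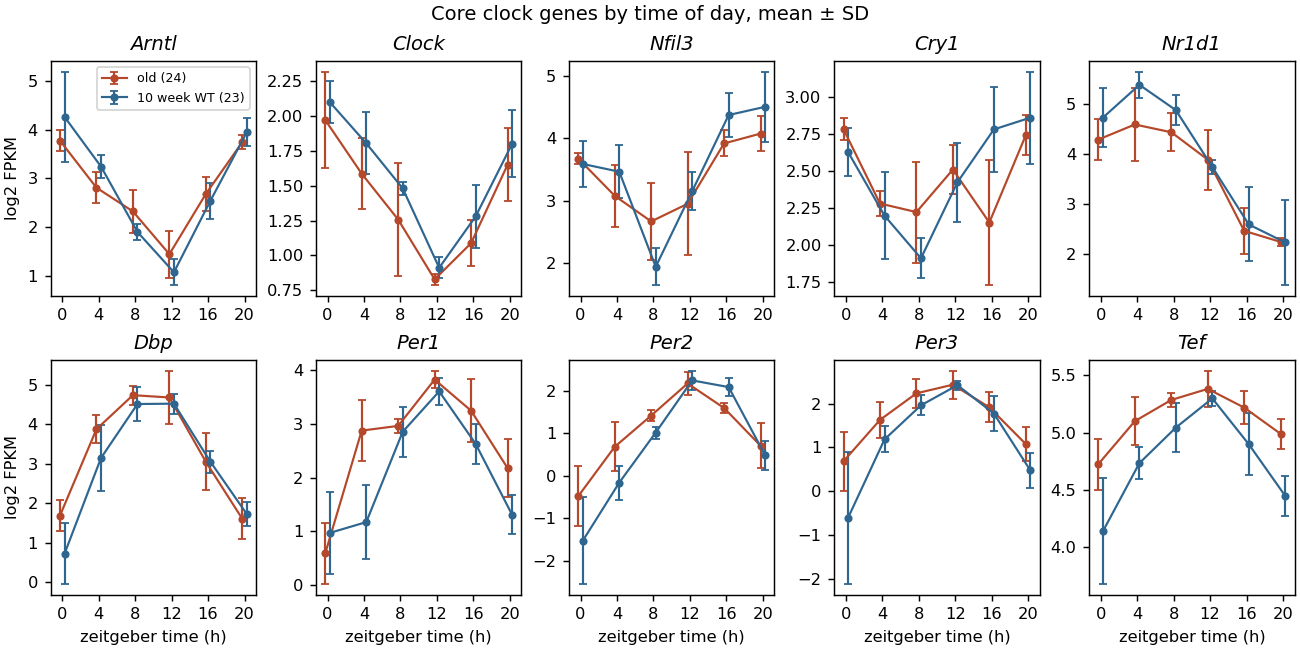
Mean log2 FPKM ± SD (y axis) by zeitgeber time (x axis, h) in old mice (red) and 10 week WT mice (blue) for 10 core clock genes, with 4 mice per point (3 for 10 week WT mice at ZT 0). Curves peak at nearly the same time in both groups, and the swing of Arntl and Per2 was smaller in old mice (amplitudes 1.10 and 1.16) than in 10 week WT mice (1.57 and 1.73).

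The E-box CACGTG is the sequence that BMAL1 and CLOCK bind, and the D-box TTATGTAA is bound by DBP, TEF and NFIL3. Of the 16 clock genes, 13 have a promoter in the RefSeq table (GRCm38.p6, 250 bases before to 50 after the gene start). An E-box stood in 4 of these (Per1, Cry1, Bhlhe41 and Tef) and a D-box in 1 (Per3), reading both strands. A gene was counted if any of its listed promoters held the motif. Counted per promoter and not per gene, 7.15% of all 32851 promoters in the RefSeq table held the E-box and 0.938% the D-box. The windows of 4 genes whose rhythm is given here follow, 5′ to 3′ on the gene's strand, with the motif in capitals. They lie at chr11:69098746-69098825 (Per1, plus), chr15:81802509-81802588 (Tef, plus), chr10:85185072-85185151 (Cry1, minus) and chr4:151044804-151044883 (Per3, minus).
Per1: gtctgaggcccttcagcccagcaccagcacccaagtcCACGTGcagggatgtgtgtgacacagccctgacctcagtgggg
Tef: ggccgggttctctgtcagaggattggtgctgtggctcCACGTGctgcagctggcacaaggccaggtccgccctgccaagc
Cry1: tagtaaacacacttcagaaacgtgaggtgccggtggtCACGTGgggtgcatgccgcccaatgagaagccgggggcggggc
Per3: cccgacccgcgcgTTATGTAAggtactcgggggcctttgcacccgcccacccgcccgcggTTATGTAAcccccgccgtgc
The genes with these E-boxes did not share a peak time. Per1 peaked at ZT 11.6 in old mice and ZT 11.9 in 10 week WT mice and Tef at ZT 11.3 in old mice and ZT 11.05 in 10 week WT mice, while Cry1 peaked at ZT 19.1 in 10 week WT mice. Per3, with 2 D-boxes, peaked at ZT 10.9 in old mice and ZT 11.2 in 10 week WT mice.

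A set of rhythmic genes chosen outside both groups gives the amplitudes without selection by either. In wild-type mice of 26 weeks 103 genes were called rhythmic. Of these, 52 were called in old mice and 78 in 10 week WT mice. Their median amplitude was 0.44 in old mice and 0.48 in 10 week WT mice, and 69 (67.0%) had a lower amplitude in old mice, against 55.7% of all genes tested. Over all genes the median amplitude was 0.10 in old mice and 0.11 in 10 week WT mice.

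**Figure D5:**
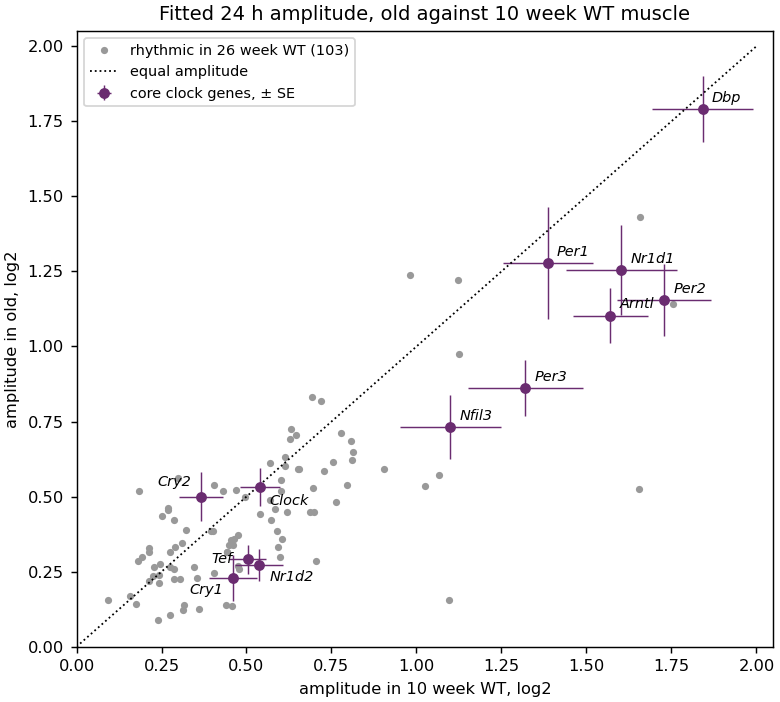
Fitted 24 h amplitude in old mice (y axis, log2) against 10 week WT mice (x axis, log2) for the 103 genes rhythmic in 26 week WT mice (grey) and for 12 core clock genes (purple, ± SE). Of the 103 genes, 69 lie under the line of equal amplitude, as do 10 of the 11 clock genes rhythmic in both groups; Dbp lies close to it with 1.79 in old mice and 1.84 in 10 week WT mice.

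Outside the clock, the genes of smallest rhythm p swung in both groups. Slc25a36, a mitochondrial carrier, had an amplitude of 0.59 ± 0.05 in old mice and 0.65 ± 0.08 in 10 week WT mice (SE). The kinase gene Dyrk2 had 0.67 ± 0.07 in old mice and 0.69 ± 0.08 in 10 week WT mice, and Ypel2 0.71 ± 0.10 in old mice and 0.78 ± 0.07 in 10 week WT mice. The monooxygenase gene Fmo2 peaked at ZT 15.8 in old mice and ZT 14.3 in 10 week WT mice, and the ubiquitin ligase adaptor Wsb1 at ZT 22.3 in old mice and ZT 22.1 in 10 week WT mice. Among genes rhythmic in both groups the median size of the peak shift was 1.07 h, and 26 of 86 peaked earlier in old mice.

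Some genes with a flat profile in old mice had a clear one in 10 week WT mice, named here after their values were seen. Scand1, which encodes a SCAN domain protein, had the smallest p of the rhythm difference (unadjusted 7.88e-06, limma adjusted p = 0.0777). Its mean log2 value lay between 4.79 and 5.09 at all 6 times in old mice, and ran from 2.53 at ZT 0 to 4.18 at ZT 16 in 10 week WT mice. Cebpb had an amplitude of 0.16 ± 0.14 in old mice and 1.09 ± 0.14 in 10 week WT mice (adjusted p of the difference 0.197). The mean level of Scand1 was higher in old mice by 1.5 log2 units and that of Cebpb by 2.70.

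The third question was whether old females and old males differed from their young counterparts in the same way. The level difference between the ages differed between the sexes in 94 of 9862 genes (0.953%), and 1572 (15.9%) had an unadjusted p under 0.05. In 70 of the 94 the old minus 10 week WT difference was more positive in females, and in 24 it was more positive in males. Pfkfb1, an enzyme that sets the level of a glycolytic activator, had mean log2 values of 4.70 ± 0.35 in old females and 3.75 ± 0.41 in 10 week WT females. In males they were 4.02 ± 0.31 in old mice and 4.09 ± 0.20 in 10 week WT mice. Only the females differed in mean by more than the SD. Dkk3, a secreted relative of WNT inhibitors, differed in males, with 3.3 ± 0.44 in old males and 1.04 ± 0.33 in 10 week WT males, against 1.99 ± 0.66 in old females and 1.74 ± 0.88 in 10 week WT females.

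The count of such genes rested on single libraries. It was 32 without old replicate 5 and 224 without old replicate 12, and it was 15 with the bone score as a covariate. The deposited values had equal female and male means in each of the 14413 genes over 259 libraries of the series, within 1e-05, so the sexes were not compared with each other. Old minus 10 week WT differences within a sex are left as they were by such a shift. In females alone 3321 genes and in males alone 1945 genes differed between the ages.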

How the data were processed

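Total RNA was sequenced as 150 bp pairs, per the labels' protocols. Per the submitters' processing notes HISAT2 (2.1.0) and featureCounts (1.6.2) were among the tools, with the GRCm38 build. Settings, strand use and the choice of genes are not given in the sources used here. What the authors deposited is log2 FPKM per gene and library. Floors near log2 of 0.01 FPKM and equal sex means show steps before deposit that no source describes. Depth was read from whole-read steps of low values (at least 94.1% of them within 0.1 of a whole read). From these values limma 3.58.1 (R 4.3.3, trend and robust) fitted level, cosine and sine per group plus sex, for the 9862 of 14413 genes whose log2 values averaged 0 or more over all libraries; p-values were Benjamini-Hochberg adjusted over these, with calls at 0.05. Fits were tested on simulated data. Genes were named by rule: the 12 largest differences each way, up to 4 per list by p, the 6 most rhythmic per group, the 6 age by sex genes of smallest p, and all clock genes. Other genes in the text (such as Col6a1, Musk, Fbxo32, Igkc, Chrng, Pax7 and Ucp3) were chosen after their values were seen. Some genes are not reported here. Members and lists were chosen with earlier results of these data known. Gene models were GENCODE M21. P-values measure the spread between mice, and sequencing batches are not given in the labels.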

Additional observations from a re-analysis of the deposited data

Results flagged for a closer look

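The age difference in level differed between females and males by its own test (limma) in 94 genes. The 6 with the smallest p were Dkk3, Pfkfb1, Aox1, Gm2606, Rbm3 and Mib1. The female minus male value of the old minus 10 week WT difference was -2.06 log2 units for Dkk3, 0.99 for Pfkfb1, 1.11 for the aldehyde oxidase gene Aox1, 2.80 for the predicted gene Gm2606, -1.01 for Rbm3 (a cold-induced RNA-binding protein) and -0.81 for the ubiquitin ligase gene Mib1, with limma adjusted p between 0.000356 and 0.00342.

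Aox1 had means of 2.68 ± 0.42 in old females and 1.87 ± 0.58 in 10 week WT females, against 2.12 ± 0.44 in old males and 2.46 ± 0.30 in 10 week WT males (SD). Rbm3 had 3.85 ± 0.45 in old males and 2.84 ± 0.24 in 10 week WT males, and 2.94 ± 0.28 in old females and 2.94 ± 0.34 in 10 week WT females. Mib1 was higher in old mice of both sexes, with means of 3.72 in old females and 2.81 in 10 week WT females, and 4.15 in old males and 2.43 in 10 week WT males. Gm2606 had a median of 3.76 in old females and 1.65 in 10 week WT females, and 2.59 in old males and 4.28 in 10 week WT males. The causes were not tested.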

How the results depend on the processing

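Level calls numbered 3891 to 4359 when each library was left out in turn (2212 to 2535 higher, 1679 to 1824 lower). With no filter on low values 2627 genes were lower. With genes averaging 2 or more there were 2371 calls, 750 of them lower. In males alone there were 1945 calls (1021 higher, 924 lower), and with the bone score as a covariate 2392 (1151 higher). Rhythm difference calls were 0 to 2 without single libraries. Scand1 was called without old replicate 9, where the count was 2, and without replicate 10, 16 or 23 of 10 week WT mice. They were 1 with genes averaging 2 or more (Scand1). Age by sex calls ran from 32 to 224 without single libraries and were moved by more than 1.5 times by 26 of them; they were 46 with median scaling, 15 with the bone score and 283 with the length slope as covariates, the slope chosen here after seeing the data. Rhythmic genes in old mice numbered 219 with that slope, 95 to 154 without single libraries, and 419 to 596 in 10 week WT mice. With the number in the title as a replicate block, 4 rhythm differences were called (Cpt1a, Cntfr, Ucp3 and Cebpb). The numbers do not pair the mice: deviations of the 23 same-numbered pairs correlated at -0.257 to 0.364, and 3 old libraries were closest to their own number.

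Directions turned with the bone score as a covariate for Acp5 (0.86) and Ctsk (0.30), which are part of the score, Spp1 (1.10), Chrna1 (-0.0017), Mybpc2 (-0.11), Actn3 (-0.16), Aldoa (-0.087), Stac3 (-0.072), Sat1 (0.015), Des (-0.12), Lyz2 (1.12), C1qa (1.42), C1qc (1.27), Lum (0.46), Gsn (0.36), Dpt (0.65), Cfd (0.74), Cdh15 (-0.27) and Clock (0.061). In males alone they turned for Pfkfb1 (-0.053), Stac3 (-0.012) and Per3 (-0.049). All are log2 units, old minus 10 week WT, and apart from Lyz2, C1qa and C1qc none was called then. The causes were not tested. Genes near the floor of the table rest on few reads.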

Other observations

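Nnt encodes the mitochondrial transhydrogenase and is known for a deletion carried by the C57BL/6J substrain; the labels give C57BL/6 without a substrain. It was singled out after its values were seen. Its lowest, median and highest log2 values were 1.42, 2.19 and 2.82 in old females and 1.76, 2.20 and 3.56 in old males. In 10 week WT mice they were 2.18, 3.73 and 4.38 in females and 1.39, 2.41 and 3.49 in males, and in 26 week mice 1.89, 3.41 and 3.87 in females and 1.80, 3.51 and 4.36 in males. Over both sexes together the level was lower in old than in 10 week WT mice by 0.84 ± 0.19 log2 units (SE, limma adjusted p = 0.00048). The age difference itself differed between the sexes. Its female minus male value was -1.41 ± 0.32 log2 units (limma adjusted p = 0.026). Means were 2.16 in old and 3.69 in 10 week WT females, and 2.32 in old and 2.40 in 10 week WT males. Whether the genetic background differed between the groups, and its part in the results, was not tested.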
